A study of Drosophila melanogaster with 2 samples.

Results

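Among the sites of the tagged zinc finger protein CG9215 on the Drosophila autosomes, 396 lay inside an intron at a short distance from a transcript start site. A site was counted here when the summit of its conservative peak lay inside an annotated gene, in no exon of any gene, and more than 500 bp and at most 2000 bp from the nearest annotated start site. These intron sites made up 13.5% (Wilson 95% interval 12.3 to 14.8) of the 2925 autosomal conservative peaks and 10.7% of all 3718. Among the conservative peaks they were chosen by position, and their signal played no part in that choice. The conservative list itself had already been thresholded for reproducibility. The stretches that meet the rule cover 8.36% of autosomal bases and hold 6.73% of the autosomal unselected peaks. Unselected peaks are those in the ranked list of both replicates that share no base with a thresholded peak of any list. They serve as the background because they passed through the same peak calling.

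The chromatin came from whole Drosophila melanogaster embryos aged 0 to 24 h of the strain CG9215-GFP, in which a transgene makes CG9215 fused to eGFP, and it was precipitated with an antibody to GFP. There was 1 group of 2 biological replicates, each from its own biosample, with no untagged or treated group. The control library named in the labels was not analysed here. Whole embryos mix all tissues and a day of development, so a peak cannot be placed in a tissue or a stage. The lists analysed here hold peaks without read counts, so sequencing depth is unknown and all intervals cover the sampling of peaks only.

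Introns of fly genes carry much of the regulatory DNA that controls where and when a gene is used. The first intron is often the longest, and enhancers and alternative start sites are commonly found in it. Proteins with C2H2 zinc fingers bind DNA through the fingers, and many act at promoters, at insulators or in introns. Where a gene has several start sites, a summit inside its intron can lie upstream of the nearest one, because the transcript that contains the intron began farther away.

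Windows reaching 50 bp to either side of the summit, are shown for 6 strong intron sites. They are read on the plus strand, 5′ to 3′, from RefSeq's copy of the Release 6 genome, which is the dm6 assembly. Capitals mark the words ATTTAAAA, TTTAAAAA and AAATAAAA or their reverse complements. These are the 8-base words whose share in conservative promoter peaks most exceeded that in unselected promoter peaks. Sites on 2L, 3L and 3R were considered for printing. Of these, the first 4 windows are those of highest signal that hold such a word, and the last pair are those of highest signal that hold none. The Msp300 capitals cover overlapping matches. The chif window also holds ATATTACA, a word described with the base composition.
chif and Hyls1, chr2L:16351212-16351312: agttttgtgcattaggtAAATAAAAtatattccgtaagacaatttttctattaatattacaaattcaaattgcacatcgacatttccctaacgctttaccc
MYPT-75D, chr3L:18640651-18640751: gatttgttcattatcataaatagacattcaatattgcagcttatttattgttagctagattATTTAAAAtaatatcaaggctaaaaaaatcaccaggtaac
Dhc64C, chr3L:4824908-4825008: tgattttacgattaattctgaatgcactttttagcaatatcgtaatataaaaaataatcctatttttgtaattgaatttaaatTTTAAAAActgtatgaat
Msp300, chr2L:5145724-5145824: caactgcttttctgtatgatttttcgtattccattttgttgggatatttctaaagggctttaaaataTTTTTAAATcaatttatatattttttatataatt
CG11050, chr2L:6612656-6612756: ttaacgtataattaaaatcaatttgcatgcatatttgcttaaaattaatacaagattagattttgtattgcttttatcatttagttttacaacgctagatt
Trl, chr3L:14759399-14759499: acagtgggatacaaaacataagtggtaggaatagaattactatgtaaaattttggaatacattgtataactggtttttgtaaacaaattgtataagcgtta

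G+C content was 28.7% in the chif window, 24.8% at MYPT-75D, 18.8% at Dhc64C, 20.8% at Msp300, 21.8% at CG11050 and 27.7% at Trl. The median over the 396 windows was 32.2%. The first 4 were picked for words made of A and T alone, which favours low G+C, so they do not stand for the set. Trl and CG11050, the strongest of the 6 sites, hold none of the 3 words.

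The strongest intron site lay in the first intron of Adf1, which encodes a transcription factor with a Myb-like domain, at 2R 6662838 to 6663290 and 793 bp downstream of the Adf1 start site. Its signal, the value that the authors' peak caller gave, was 3119 in the conservative list, 1935 in replicate 1 and 1185 in replicate 2. The site ranked 5 in the whole conservative list. Next came CG11050, at 2880 in the conservative list, 1508 in replicate 1 and 1372 in replicate 2. It is unusual in that its summit lay in an intron of only 140 bp, the shortest intron among the 396 sites. The peak, at 2L 6612474 to 6612912, reached past both ends of that intron.

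The third site, at 2614, lay where the genes HmgZ and HmgD overlap on opposite strands, at 2R 21703120 to 21703692. Both encode HMG-box proteins, which bend DNA and are abundant in embryonic chromatin. Replicate 1 gave it 1498 and replicate 2 gave it 1093. The summit was 557 bp upstream of the nearest HmgZ start site. Trl, which encodes GAGA factor, held the fourth site at 2220, with 1072 in replicate 1 and 1143 in replicate 2. It lay at 3L 14759089 to 14759749, 1487 bp upstream of the nearest start site, which is assigned to Trl and CG42507, and a conservative peak of 1135 stood near that start site. These 4 sites were above 1000 in both replicates, and no other site of the set was.

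CG9663, which encodes an ABC transporter, held 2 summits in the same interval at 2L 3301965 to 3302612, at 1737 and 651. The replicates' ranked peak with the highest signal there, 845 in replicate 1 and 800 in replicate 2, is counted for both summits, so these are not separate observations. The site shared by Hyls1, a centriole protein gene, and chif, which encodes the activating subunit of the replication kinase Cdc7, had 1019, with 564 and 414 in replicates 1 and 2. CG9837 at 3R 8811509 to 8811851 was the strongest site on 3R with 1011, from 554 in replicate 1 and 484 in replicate 2. CG4496 had 999 and CG32425 had 982.

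The next sites were in KCNQ, a potassium channel gene, at 843, with the start site of mlt nearest, and in for, the cGMP-dependent protein kinase gene, at 832. CG13204 had 782 and mub, which encodes an RNA-binding protein with KH domains, had 765. MYPT-75D, a regulatory subunit of myosin phosphatase, had 760. The kinase genes Mekk1, a MAP kinase kinase kinase, and Csk, which restrains Src family kinases, had 707 and 668. Mapmodulin had 667. Dhc64C, the heavy chain of cytoplasmic dynein, had 647, and Msp300, a nesprin that anchors nuclei, had 637. All 20 strongest sites overlapped a thresholded peak in each replicate, and 7 of them had a conservative peak within 500 bp of the nearest start site.

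**Figure D1:**
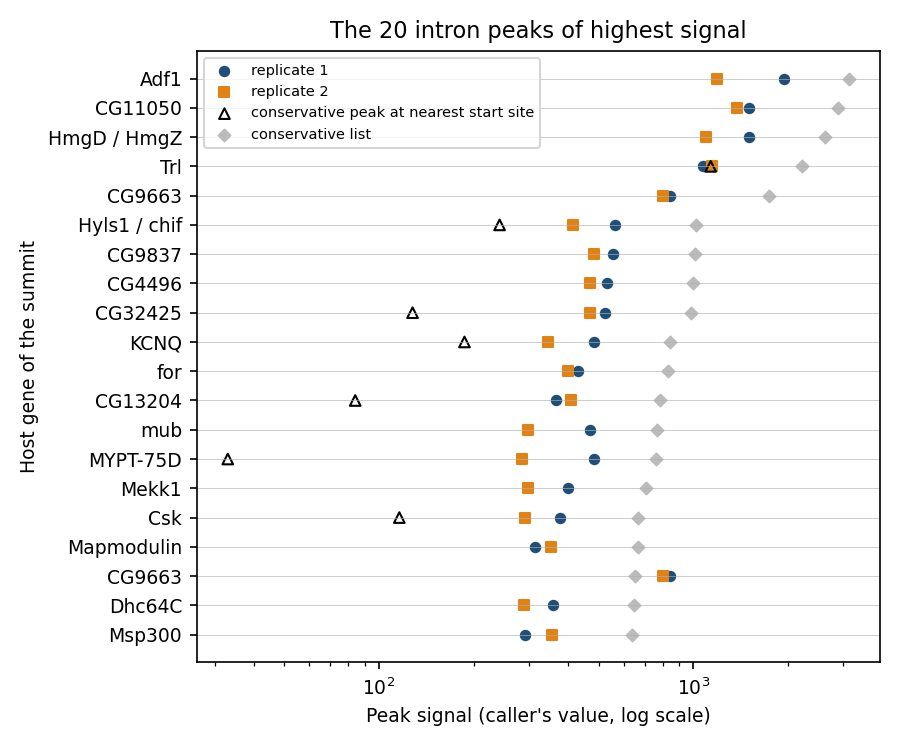
Signal of the 20 strongest intron sites (rows, by host gene) on a log axis, in the conservative list, in replicate 1, in replicate 2 and, where there is one, of the conservative peak at the nearest start site. Adf1, CG11050, HmgZ with HmgD and Trl exceed 1000 in both replicates, and only Trl has a start site peak near that level.

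The median signal of the 396 sites was 146, with quartiles of 104 and 235 and a range of 2.43 to 3119. It was 122 for the 432 autosomal intron peaks more than 2000 bp from a start site and 177 for the 1562 autosomal promoter peaks, whose summits lie within 500 bp of one. Among the 369 strongest peaks of the list were 33 of the near intron sites (8.33%), 2.55% of the far intron peaks and 15.9% of the promoter peaks. The near intron sites thus sat between the far intron peaks and promoters in strength. The lowest values belong to secondary summits: all 11 sites with a signal under 20 overlapped a stronger conservative peak.

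Replicate 1 passed 332 of the 396 sites, meaning that a thresholded peak of that replicate overlapped the site by at least 1 bp. This is 83.8% (79.9 to 87.1), against 78.6% of all autosomal conservative peaks. Replicate 2 passed 253, or 63.9%, against 64.6% of all autosomal conservative peaks. Both passed 226 (57.1%, 52.2 to 61.9), against 59.3%. Replicate 1 alone passed 106 (26.8%), against 19.3%, and replicate 2 alone passed 27 (6.82%), against 5.3%. Neither passed the remaining 37 (9.34%), against 16.1%. Passing in both was therefore near the level of the whole list, and passing in replicate 1 alone was above it. Far intron peaks passed in replicate 1 alone at a like 25.9% (22.0 to 30.3), and promoter peaks at 13.5%. In both replicates 46.1% of far intron peaks and 72.0% of promoter peaks passed. A high share in replicate 1 alone was thus not particular to the near intron sites. The conservative list was made from both replicates, so some of this recurrence is set by how the list was made.

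Whether a site passed in both replicates followed its strength. Of the 99 sites of highest signal 99.0% passed in both, of the next 99 sites 81.8%, of the 99 after those 29.3% and of the 99 lowest 18.2%. Passing is a threshold on each replicate's peaks, and the conservative signal was close to the sum of the replicates' signals. The relation is therefore in part built in. Among the sites that did not pass in both, the strongest was in Trpm, a cation channel gene, at 2R 15308108 to 15308523. Trpm had 246 in the conservative list and nearly equal signals of 122 in replicate 1 and 121 in replicate 2, and it passed in replicate 1 only. chn, which encodes the zinc finger protein charlatan, had 202 and passed in replicate 1 only, with 158 there. No ranked peak of replicate 2 overlapped it. CG43693 had 181, with 105 in replicate 1 and 65.0 in replicate 2, and also passed in replicate 1 only.

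A ranked peak of each replicate overlapped 390 of the sites. Their median signal was 82.6 in replicate 1 and 68.7 in replicate 2, and 260 (66.7%) were higher in replicate 1, with a median ratio of 1.16. The same ratio was 1.12 for far intron peaks and 1.05 for promoter peaks. Since the caller's scaling is not stated, this ratio is not a difference in binding. Across the 390 sites the signals of the replicates had a Spearman correlation of 0.77 and a Pearson correlation of 0.88 on the log2 scale, which describes these sites only, since they share both libraries and a common selection. The conservative signal lay within 10% of the sum of the replicates' signals at 342 of the 390 (87.7%). Both replicates put their summit within 50 bp of the conservative summit at 276 sites (70.8%).

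**Figure D2:**
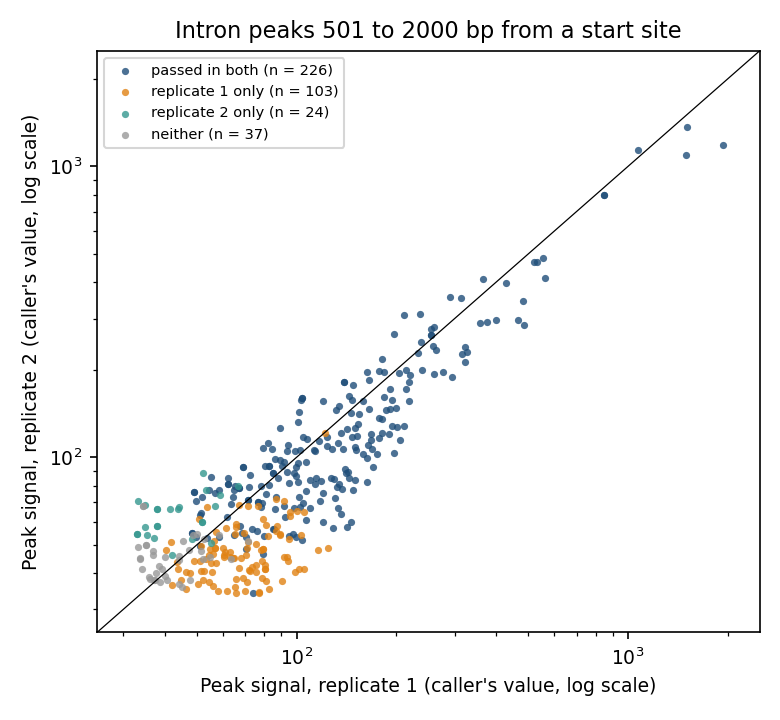
Signal of the 390 intron sites with a ranked peak in each replicate, replicate 1 on the horizontal and replicate 2 on the vertical log axis, coloured by where the site passed the threshold; the line marks equal values. The strong sites follow the line and passed in both, while sites that passed in replicate 1 only lie mostly below it.

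Autosomal introns held fewer conservative peaks the farther they lay from a start site. Per megabase (Mb) of intron there were 59.1 peaks (exact Poisson 95% interval 48.5 to 71.3) beyond 500 and up to 750 bp, 47.6 up to 1000 bp, 43.6 up to 1250 bp and 41.1 up to 1500 bp. The values were 28.7 up to 1750 bp and 29.3 (20.6 to 40.4) up to 2000 bp. Outside the range lay 68.9 (57.5 to 81.9) in the 250 bp below it and 19.6 (16.6 to 23.0) from there up to 4000 bp. The intervals on either side of each limit overlapped, so the sites are a slice of a gradient.

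Unselected peaks did not follow that gradient. Their density was 606 per Mb of intron in the 250 bp nearest the start site within the range, 779 in the 250 bp farthest from it and 843 beyond 8000 bp. Over the whole range of the rule, 5.97% of conservative and unselected peaks together were conservative, against 12.4% at promoters and 1.57% in introns beyond 2000 bp. Over the whole range the density of conservative peaks was 42.9 per Mb (38.8 to 47.4), against 12.9 (11.7 to 14.2) in far introns, 12.8 between genes and 103 at promoters. Signal changed less with distance than density, from a median of 170 up to 750 bp to 114 between 1500 and 1750 bp and 135 in the farthest 250 bp of the range.

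**Figure D3:**
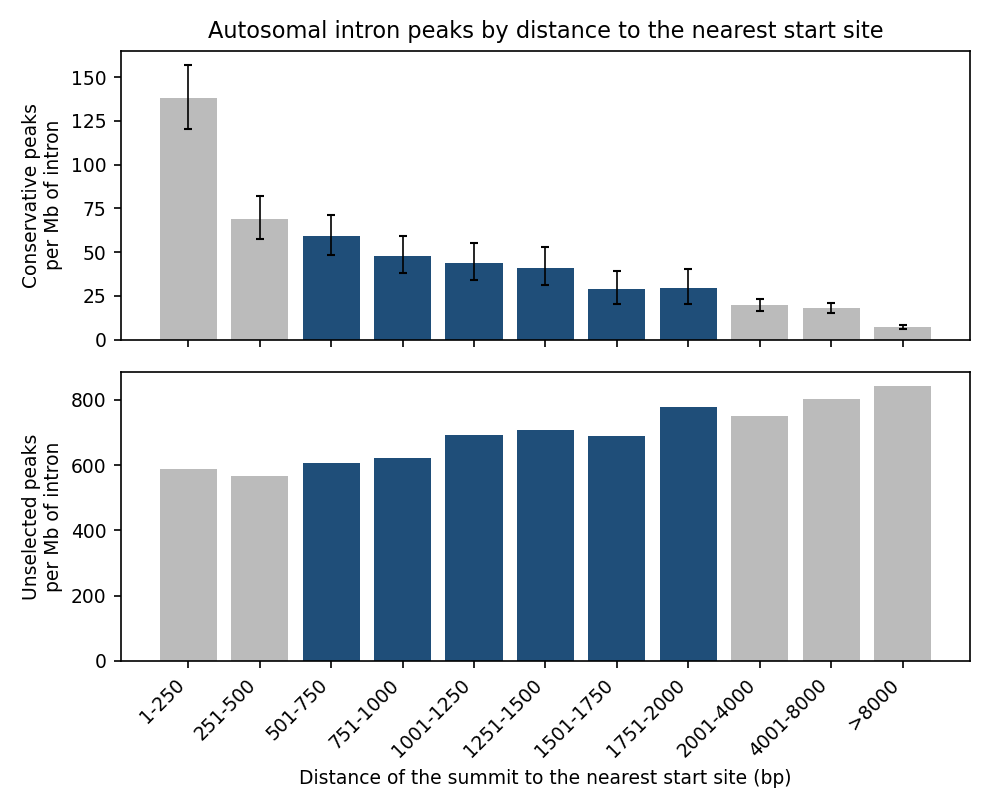
Conservative peaks (top, with exact Poisson 95% intervals) and unselected peaks (bottom) per Mb of autosomal intron, by distance of the summit from the nearest start site; dark bars are the range of the sites, over 500 and up to 2000 bp. The conservative density falls from 59.1 to 29.3 per Mb within that range while the unselected density goes from 606 to 779 per Mb.

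At the limits of the rule, the sites just inside were those of Mapmodulin, 502 bp from its start site with a signal of 667, and of LpR1, a lipophorin receptor gene, at 2000 bp with 130. Just outside were intron peaks of DopEcR, a receptor for dopamine and ecdysteroids, at 499 bp with 167, and of Lerp, a lysosomal enzyme receptor gene, at 2007 bp with 188.

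The sites were spread over the large arms about as the eligible intron bases were. There were 77 on 2L, 94 on 2R, 102 on 3L and 123 on 3R. Their densities ran from 37.2 per Mb (29.4 to 46.5) on 2L to 47.1 (39.2 to 56.2) on 3R, with overlapping intervals. Chromosome 4 held none in its 0.129 Mb of eligible intron, which allows up to 23.2 per Mb by a limit of 3 counts and 28.5 by the exact Poisson interval. It held no unselected peak under the rule either, against 676 per Mb over all eligible introns. The 2 limits therefore apply only if peaks could be called there, which was not tested.

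First introns held most of the sites. The summit lay in the first intron of a transcript at 336 sites (84.8%, 81.0 to 88.0), against 63.4% (62.2 to 64.6) of the unselected peaks under the same rule and 64.2% of the eligible bases. Far intron peaks were in a first intron at 59.95%. In successive sets of 99 sites from the highest signal down the share was 85.9%, 85.9%, 83.8% and 83.8%, so it varied little with strength. Of the others, 41 were in a second intron and 19 in a later one. The introns that held sites had a median length of 5172 bp, against 5612 bp for the introns of unselected peaks. The sites lay nearer the start site than unselected peaks, with median distances of 1020 and 1212 bp. Neither these shares nor the position shares that follow were matched for distance.

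Direction relative to the start site did not stand apart. Downstream of the nearest start site lay 255 sites (64.4%, 59.6 to 69.0), against 63.0% of unselected peaks and 64.9% of eligible bases. The nearest start site did belong to the host gene more often, at 345 sites (87.1%, 83.5 to 90.1), against 66.4% of unselected peaks. Of these, 241 lay downstream of a host start site and 104 upstream of one. Both classes were larger than among unselected peaks. The downstream class made up 60.9% of the sites (56.0 to 65.5) and 51.6% of unselected peaks. The upstream class made up 26.3% of the sites (22.2 to 30.8) and 14.9% of unselected peaks. Its median signal was 169, against 139 in the downstream class, with overlapping quartiles of 110 to 272 and 101.1 to 232.

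A conservative peak stood within 500 bp of the nearest start site at 87 sites (22.0%, 18.2 to 26.3). The share was 9.34% for unselected peaks under the rule, 9.95% for the eligible bases and 14.8% (11.8 to 18.5) for far intron peaks. Of all autosomal start sites, 13% had such a peak. The excess over unselected peaks held on both sides of the start site, with 22.7% against 11.4% downstream and 20.6% against 5.93% upstream. At the remaining 309 sites the intron peak had no conservative partner at its nearest start site.

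Within the 87 pairs the intron peak was the stronger one in 44 (50.6%, 40.3 to 60.8). The medians were 153 for the intron peaks and 160 for the start site peaks. The signals of a pair were weakly related, with a Spearman correlation of 0.12 over the 87 pairs, given as a description. chif had 1019 in its intron against 242 at the start site, MYPT-75D 760 against 33.1, and Csk 668 against 116. The reverse order was seen at chn, with 202 in the intron and 531 at the start site.

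**Figure D4:**
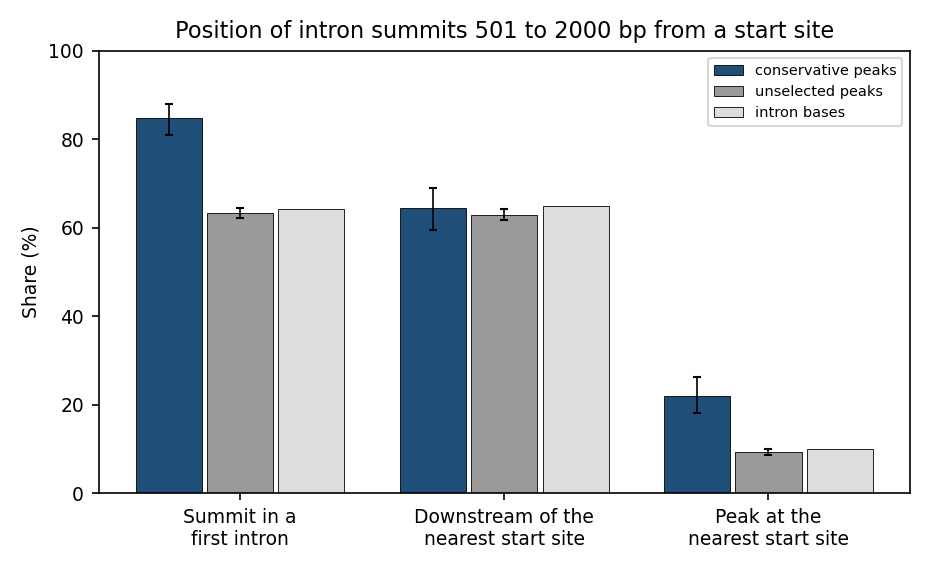
Share of the 396 intron sites, of unselected peaks under the same rule and of all eligible intron bases that lie in a first intron, downstream of the nearest start site, or near a start site with a conservative peak; bars on the peak sets are Wilson 95% intervals. The sites exceed both backgrounds in the first and last comparison (84.8% and 22.0%) and not in the second (64.4%).

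The summits were AT-rich. Mean G+C content in these windows was 33.8% and the median 32.2%, with quartiles of 26.7% and 38.6%. Eligible bases had a median of 39.6%, and 299 of the 396 sites (75.5%) lay below it. Unselected peaks under the rule went the other way, with a median of 45.5% and quartiles of 39.6% and 50.5%. Far intron peaks had 31.7% and promoter peaks 32.7%, so the conservative peaks of all 3 kinds had like medians. What part composition itself plays in peak calling was not tested.

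The AT-rich stretch was narrow. Mean G+C was 33.8% within 50 bp of the summit and 40.9% at 750 to 1000 bp from it. In between, G+C was higher, at 44.6% in the 25 bp bins centred 262.5 bp to the left and 187.5 bp to the right. Far intron peaks also rose there, to 45.6% in the bin 212.5 bp to the right. For unselected peaks the means within 50 bp and at 750 to 1000 bp were 45.02% and 43.1%. Stronger sites had lower G+C: the medians were 29.7%, 30.7%, 32.7% and 36.6% in sets of 99 sites from the highest signal to the lowest, and the Spearman correlation of signal and G+C over the 396 sites was -0.27. Among the 20 strongest, values ran from 18.8% at Dhc64C to 51.5% at CG13204.

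**Figure D5:**
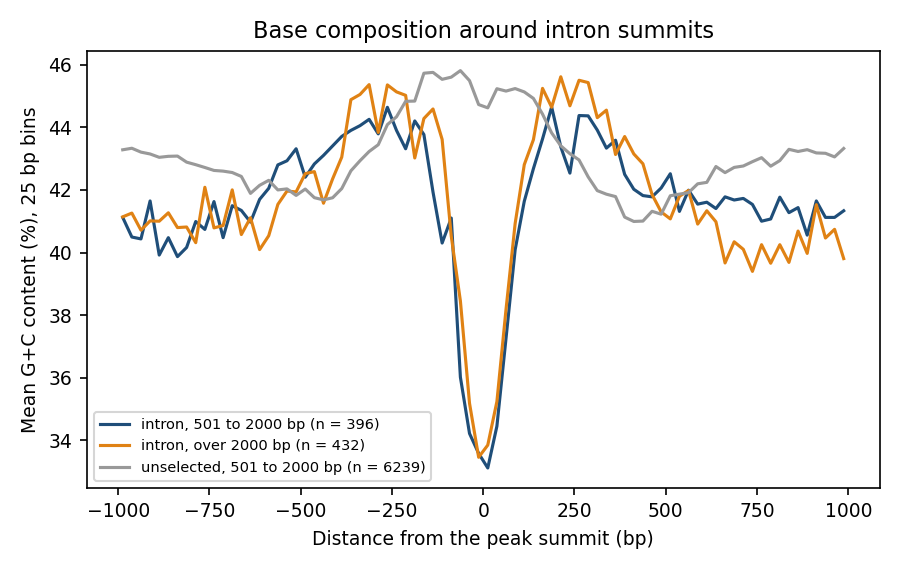
Mean G+C content in bins of 25 bp by distance from the summit, for the 396 intron sites, the 432 autosomal intron peaks over 2000 bp from a start site and the 6239 unselected peaks under the same rule. Both sets of conservative peaks dip close to the summit, to 33.8% and 34.4% within 50 bp, and the unselected peaks are at 45.02%.

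As a group the promoter words were about as frequent as in eligible windows of the same G+C content, and AAATAAAA alone was less frequent. ATTTAAAA was in the windows of 27 sites (6.82%), TTTAAAAA of 31 (7.83%) and AAATAAAA of 16 (4.04%), on either strand. Weighting the eligible windows to the G+C content of the sites gave 5.56% for ATTTAAAA and 5.57% for TTTAAAAA, against intervals of 4.73 to 9.74 and 5.57 to 10.9 at the sites. For AAATAAAA it gave 7.13%, above the interval of the sites (2.50 to 6.46). Any of the 3 was in 61 (15.4%, 12.2 to 19.3), against 5.29% of unselected peaks and 9.46% of all eligible windows. The weighted share was 15.1%. Promoter peaks had 20.04% and far intron peaks 12.96%. The TATA word TATAAA gave the same picture, at 90 sites (22.7%), 14.8% of eligible windows and 22.2% after weighting.

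Words of known promoter and insulator factors were mostly near the background. The DRE word TATCGATA, bound by DREF, was in 0 of 396 windows, which allows a share of up to 0.758% by a limit of 3 counts and 0.961% by the Wilson interval. It was in 3.33% of promoter peaks and 0.195% of eligible windows. CGATA, the core bound by BEAF-32 and contained in the DRE, was in 10.6%, against 11.0% of eligible windows and 20.8% of promoter peaks. GAGAG, bound by GAGA factor, was in 11.4% (8.60 to 14.9), against 11.0% of eligible windows and 13.4% of unselected peaks. After weighting it was 8.31%, just below the interval of the sites. AGATAA, the GATA factor word, was in 9.85%, against 7.18% and, weighted, 8.84%. GCCAT, the Pho core, was in 12.9% and 18.4%, or 14.3% weighted. CAGCTG, an E-box, was in 4.29% (2.70 to 6.77), against 3.67% of eligible windows and 5.29% of unselected peaks. Its weighted share was 2.50%, just below the interval. The words for M1BP (GGTCACAC), Zelda (CAGGTAG), Su(Hw) (GCATACTT), CTCF (AGNNGGCGC), the CACGTG E-box and the repeat CACACACA were each in at most 4 windows. The M1BP word was in only 2 (0.505%, 0.139 to 1.82), against a weighted 0.0922%.

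A word picked from the sites themselves stood out more. ATATTACA was in 18 windows (4.55%, 2.89 to 7.07), against 0.321% of unselected peaks, 0.663% of eligible windows and 1.03% after weighting for G+C. Promoter peaks had 1.15% and far intron peaks 2.08%. In the list of replicate 2 alone the share was 2.26%, near that of far intron peaks, and in that of replicate 1 alone 3.68%. In windows reaching 25 bp to either side it was 2.02%. It was chosen after the values were seen, as the word with the largest ratio to unselected peaks among words in at least 15 sites, out of 32872 words compared. Its share at the sites is therefore a description that the choice favoured, and other word lengths were looked at as well.

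The sites fell in 355 genes, 349 of them protein coding. This is 4.51% of the 7863 genes with eligible intron bases. A single site was found in 299 of the genes, 2 in 42, and 3 or more in 14. In 19 of the 42 and 6 of the 14, peaks of the gene overlapped each other, so these are neighbouring or secondary summits rather than separate intervals. Without the peaks that overlap a stronger conservative peak, 28 genes held 2 sites and 9 held 3 or more. A conservative peak also stood within 500 bp of a start site of 142 host genes (40.0%, 35.0 to 45.2), against 19.3% of all genes with eligible bases. The part of gene length and of the number of start sites in this was not tested.

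shn, which encodes the zinc finger protein schnurri that represses brinker downstream of Dpp, hosted 5 sites over 18644 bp. Their signals were 465, 217, 120, 105 and 74.5. HmgZ hosted 4 and HmgD 3 of the same ones. Trl hosted 3, at 2220, 368 and 246. tou, a chromatin remodelling gene, hosted 3 with a highest signal of 533, and kis, a CHD-type remodeller, 3 with a highest signal of 165. Doa, a LAMMER kinase, reached 296, Shrm, the fly Shroom, 322, SCaMC, a mitochondrial carrier, 170, and Ctps, CTP synthase, 139. The 3 sites of CG9837 reached 1011 and those of atos 186. CG9674 and nudC overlap and share their 3 sites, of which the strongest had 128.

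Host genes were counted in 12 lists of 323 entries, of which 319 were found in the annotation. The counts are set beside the 4.51% over all genes with eligible bases. Intron length differs between genes, and nothing particular to a list is read from the counts. Sites that did not pass in both replicates are counted too, among them those of brm, dco, mam and psq. Per eligible Mb the ecdysone list held 20.8 sites, the neuronal list 31.4, Notch, Wnt and Hedgehog 32.6, and TOR, insulin and Hippo 36.8. These lie below the 42.9 per Mb of all the sites, but they rest on 1 to 3 sites each and carry no interval. RNA-binding and splicing regulators held 43.2. The other lists ran from 67.2 for muscle and actin cytoskeleton genes to 309 for insulator, architectural and promoter factors. In the 309, a site shared by HmgZ and HmgD is counted for each gene.

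Receptor tyrosine kinase and Ras signalling hosted sites in 8 of 22 genes with eligible bases. The strongest were in drk, the Grb2-type adaptor, at 328, and Src64B, a Src family kinase, at 314. The insulin receptor gene InR had 285 and ths, which encodes an FGF ligand, had 257. The ETS factor pnt had 211 and 106, the FGF and EGF antagonist sty 198, the ETS repressor aop 97.3 and the receptor gene Egfr 71.9. The list thus held a ligand, receptors, an adaptor, a kinase and nuclear factors.

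In the TGF-beta and JAK/STAT list 4 of 11 genes hosted sites: shn, the SMAD gene Mad at 299, the STAT gene Stat92E at 232, and its feedback inhibitor Socs36E at 113. Insulator, architectural and promoter factors had 6 of 22, with Adf1, HmgZ, HmgD and Trl far above psq at 145 and ttk at 114. HmgZ and HmgD share their strongest site, so it enters this count under both genes. The list was chosen with earlier results of these data known, and nothing is read from the strong sites in it. The Polycomb and trithorax list had 3 of 27, namely Trl, kis and the SWI/SNF ATPase gene brm at 131. The brm site also lies within CG17029, whose start site is the nearest, and it passed in replicate 1 only.

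RNA-binding and splicing regulators had 7 of 25, led by mub at 765 and brat, a translational repressor, at 528. The splicing factor gene ps had 262 and the translational repressor pum 229. Muscle and actin cytoskeleton genes had 6 of 25, with rhea, the talin gene, at 317 and the formin gene dia at 225. The cofilin gene tsr had 210 and the formin gene capu 203. Cell cycle and circadian clock genes had 4 of 20, with CycE at 210 and dco, a casein kinase 1, at 141.

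Neuronal function and axon guidance genes had 3 of 21, with the netrin receptor gene fra at 135 and Syn, synapsin, at 110. The ecdysone list had 2 of 18, EcR, the ecdysone receptor, at 215 and its coactivator gene tai at 101.1. Notch, Wnt and Hedgehog signalling also had 2, of 21, in neur at 276 and mam at 147, both of the Notch pathway. mRNA decay, translation and microRNA genes had 2 of 21, pAbp at 207 and bel at 99.3. Of the TOR, insulin and Hippo list only dco hosted a site, 1 of 23 genes, and that site passed in replicate 1 only.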

How the data were processed

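Chromatin immunoprecipitation was read from 8 peak lists that the authors deposited on dm6. Chromatin was sonicated to a size range of 200 to 800, per the labels. Not given in the sources used here are the aligner and peak caller. Signal is the value of the authors' peak caller, with unstated scaling, and was used to rank and describe peaks. The score, a deposited whole number of at most 1000, comes from the irreproducible discovery rate (IDR); thresholded peaks have at least 830, a −log10 IDR of about 2.0 as deposited by the authors in the ranked lists.

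Summits were placed in Ensembl release 115 gene models (BDGP 6.54, 18277 genes); 5889 transposable element insertions listed there as genes were left out. Sequence came from RefSeq's Release 6. A replicate's signal at a site is that of its strongest overlapping ranked peak. Shares carry Wilson and densities exact Poisson 95% intervals; eligible bases were counted exactly. Weighted word shares take the eligible windows at each G+C content in the proportions of the sites, an addition made after seeing the data. With 1 group no test between conditions exists, and no p-value is given. Scripts were tested on simulated data. Python 3.11.15, numpy 2.4.6, pandas 2.3.3, scipy 1.17.1 and matplotlib 3.10.9 were used.

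The sites, gene lists, words and motifs were chosen with earlier results of these data known. Named genes are hosts of the 20 strongest sites, the strongest site of each autosome, the 3 strongest sites not passed in both replicates, the 2 strongest sites of each list, hosts of 3 or more sites, and the peaks at the distance limits; further list genes, and the start site pairs of 4 of these sites, were added after their values were seen. Alternatives covered start sites, peak lists, overlap rules, windows and distance limits.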

Additional observations from a re-analysis of the deposited data

How the results depend on the processing

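The number of sites ran from 266 to 380 when the thresholded list of a single replicate stood in for the conservative list, and was 427 in the other thresholded list, 408 with transposable element insertions kept as genes, and 198 among the stronger 50% of the list. Their share of the peaks on assembled chromosomes, 10.8%, moved to 13.5% with a lower limit of 300 bp and 8.69% with an upper limit of 1500 bp, as more or fewer bases qualify. A reciprocal overlap of 50% lowered passing in both replicates from 57.1% to 41.2%, in replicate 1 from 83.8% to 75.0% and in replicate 2 from 63.9% to 52.3%; summits within 100 bp gave 51.3%, 78.5% and 58.6%. Any promoter word was in 5.30% of windows reaching 25 bp to either side and 24.7% of those reaching 100 bp, where median G+C was 35.3%. The share with a peak at the nearest start site was 13.6% within 250 bp and 31.3% within 1000 bp, the site itself not counted. Median signal was 82.6 on the scale of replicate 1 and 68.9 on that of replicate 2. With either replicate's list alone, the first intron share ran from 82.9% to 85.3%, the downstream share from 61.3% to 63.4%, the start site peak share from 18.8% to 21.6%, and the ratio of density in the nearest 250 bp of the range to that in the farthest 250 bp from 2.30 to 2.63, against 2.02.

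No paired analysis was possible because the labels give only 1 group. Depth is unknown, and peaks of one list share both libraries, so the intervals do not cover the spread between embryos.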

Other observations

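Peak width was nearly fixed: 287 of the 396 sites (72.5%) were exactly 416 bp wide, as were 70.5% of all autosomal conservative peaks. The other 109 ran from 104 to 661 bp. Median signal was 121 for sites of the fixed width and 332 for the others.

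Some intron sites lay close to each other, though their spacing was not compared with that of other peaks. Of neighbouring sites on a chromosome arm, 35 pairs had summits within 1000 bp and 58 within 5000 bp, and 27 sites (6.82%) overlapped a stronger conservative peak, the same share as in the whole list (6.82%). Of the 396 summits 1 lay in an annotated transposable element insertion. The strongest sites with ATATTACA, named after their values were seen, were those of chif with Hyls1, CG32425 at 982 and Mekk1 at 707.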
